A study of Arabidopsis thaliana with 8 samples.

Results

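SMZ (SCHLAFMUTZE, AT3G54990) and SNZ (SCHNARCHZAPFEN, AT2G39250) are a pair of Arabidopsis thaliana genes that encode AP2-domain transcription factors and repress flowering. They were chosen by name, and each was read from the 1 probe set that the platform annotation lists for it, so that 2 of 13356 genes listed with a probe set of their own are described. Vegetative shoot apices of plants grown for 20 days in short days were profiled on Affymetrix ATH1 arrays, with 2 arrays for each of 4 genotypes. Col-0 is the wild-type accession. The line se-1 carries a mutant allele of SERRATE (SE), a zinc-finger protein of microRNA processing, and ago1-27 carries one of ARGONAUTE1 (AGO1), the protein that loads microRNAs and acts on their targets. The line se-1 p35S::MIR156 carries the se-1 allele together with a miR156 precursor driven by the 35S promoter of a plant virus, which is active in most tissues rather than in the cells that normally make miR156. Age, day length and tissue were the same in all 4 groups, and the transgene was profiled in the se-1 background, with no Col-0 line carrying it among these arrays. Nothing in the labels says if plants were pooled or if a genotype's replicates are independent harvests. The p-values therefore describe the spread between these samples, which may be technical.

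SMZ and SNZ belong to a small family with AP2, TOE1, TOE2 and TOE3, whose transcripts carry a site for miR172 in the coding sequence. miR172 lowers the output of these genes both by slicing the transcript and by blocking its translation, so a transcript level shows only part of its action. In the ageing pathway of the shoot, miR156 is high in young plants and represses SPL transcription factors, SPL proteins raise miR172 as the plant ages, and miR172 then lowers the AP2-family repressors. SMZ represses FT, the gene of the mobile flowering signal, and plants with too much SMZ flower late. Neither miR156 nor miR172 was measured on these arrays. AP2, TOE1, TOE2 and TOE3, the 5 MIR172 loci and the 11 SPL genes targeted by miR156 were without a listed probe set, so they are not analysed here. The annotation used lists 14016 of the 22810 probe sets, so a gene without a listed probe set may still have one on the array.

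Signals are linear and were scaled by the authors, and the median signal of an array lay between 76.7 and 82.4. The arrays carry 27 probe sets for bacterial genes that match no plant transcript. The highest of these marks the level up to which a signal is called within background, and it lay between 14.2 and 34.1. Its geometric mean was 16.1 in se-1 p35S::MIR156, 21.0 in Col-0, 23.3 in se-1 and 27.3 in ago1-27, and it was higher on replicate 2 than on replicate 1 in all 4 genotypes. Both genes were dim: the mean log2 level of SMZ exceeded that of 41.3% of probe sets other than controls, and that of SNZ exceeded 32.6%. The tissue could hardly be checked from its markers, few of which had a listed probe set. Of 10 meristem and boundary genes 1 had a listed probe set, that of the stem cell gene CLV3, and it was within background on 7 of 8 arrays. Of 9 floral genes the 1 with a listed probe set, UFO, was also within background on 7 of 8 arrays. The 3 of 5 leaf photosynthesis genes with a listed probe set had a summed signal of 6353 to 10150 per array.

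SMZ was above the bacterial controls on all 8 arrays. Its signal was 43.8 and 35.5 on the Col-0 arrays, 49.3 and 55.2 on those of se-1, 70.0 and 74.0 on those of se-1 p35S::MIR156, and 28.8 and 37.9 on those of ago1-27. The line with the transgene was thus the highest, and both of its arrays exceeded each of the other 6. The share of all probe sets with such a pattern was not counted. Ordered by mean, the genotypes ran from ago1-27 (33.3 ± 6.38) through Col-0 (39.7 ± 5.90) and se-1 (52.2 ± 4.16) to se-1 p35S::MIR156 (72.0 ± 2.84; SD, n = 2 for each). Of the neighbours in this order, ago1-27 and Col-0 overlapped, while the arrays of Col-0 and se-1, and those of se-1 and se-1 p35S::MIR156, did not. The same was so for 42.9% and 41.7% of all probe sets tested in those last 2 comparisons. The ranks within each array, which do not depend on the scaling, followed the same order: SMZ exceeded 34.7% and 36.7% of probe sets in ago1-27, 40.6% and 37.5% for Col-0, 41.5% and 43.1% for se-1, and 47.7% and 48.8% for se-1 p35S::MIR156. On the second ago1-27 array the SMZ signal was only 1.11 times the highest bacterial signal. In extracts of whole apices, fewer cells that express a gene and less RNA in each of them cannot be told apart.

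SNZ covered a wider range and reached background in both microRNA mutants. Its signal was 65.7 and 59.0 with the transgene, 24.6 and 48.7 in Col-0, 27.1 and 4.13 for se-1, and 9.59 and 0.963 for ago1-27. The line with the transgene was again the highest, without overlap with any other genotype, a pattern not counted over all probe sets. Both ago1-27 arrays and the second se-1 array were within background, and on those 3 arrays 8, 23 and 11 of the 27 bacterial probe sets were brighter than SNZ. By mean the order was ago1-27 (5.28 ± 6.10), se-1 (15.6 ± 16.2), Col-0 (36.7 ± 17) and se-1 p35S::MIR156 (62.3 ± 4.76; SD, n = 2 for each). The arrays of ago1-27 and se-1 overlapped, and so did those of se-1 and Col-0, so these neighbours were not separated beyond their spread. Col-0 therefore lay on different sides of se-1 for the 2 genes by mean, below it for SMZ and above it for SNZ.

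**Figure D1:**
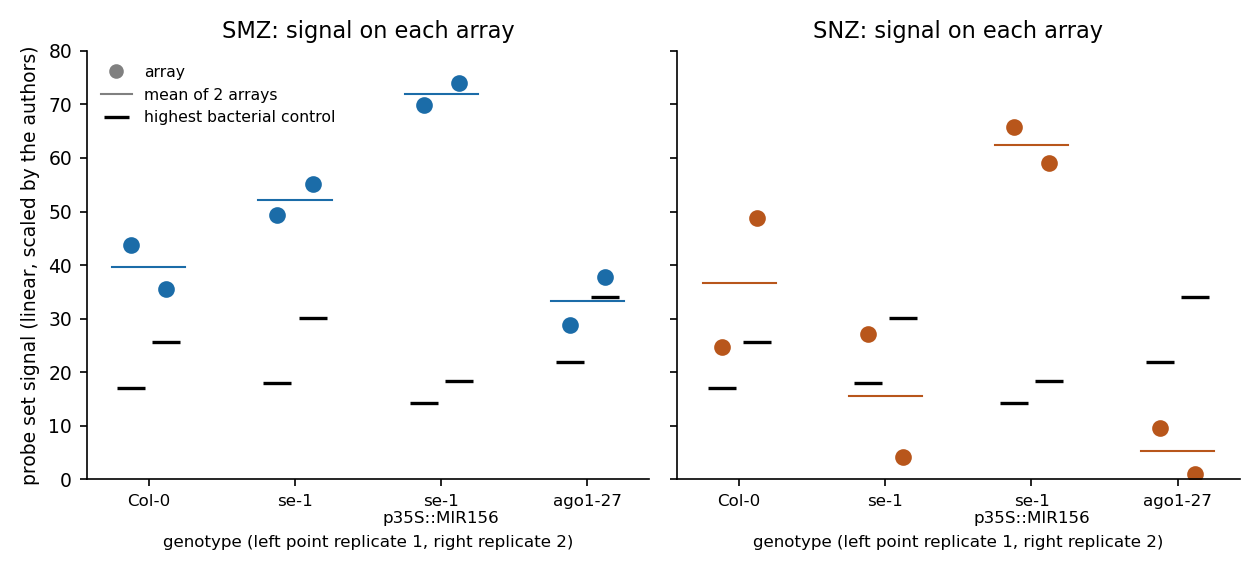
Signal of SMZ (left) and SNZ (right) on each of the 8 arrays, by genotype; points are arrays, coloured lines the means of 2 arrays, and black dashes the highest bacterial control signal on the same array. Both se-1 p35S::MIR156 arrays lie above all other arrays for each gene, and SNZ lies below the bacterial level on both ago1-27 arrays and on the second se-1 array. The share of all probe sets highest in this way was not counted.

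The replicates of SNZ were less tight than those of SMZ. On the scale of log2(signal + 16), where 16 is added to damp the noise of dim signals, the SD between replicates pooled over the genotypes was 0.131 for SMZ and 0.503 for SNZ. The SD that the fitted trend gives for probe sets of their brightness was 0.270 and 0.327. SMZ was thus quieter, and SNZ noisier, than the trend. In an exact permutation test of each gene alone, over the 105 ways to divide 8 arrays into 4 groups of 2, the genotypes differed in SMZ (F = 15.8, p = 0.0190) and were not shown to differ in SNZ (F = 5.66, p = 0.0857), where the smallest p possible is 0.00952. These are the 2 genes tested in this way. The exact permutation test within replicate numbers, whose 24 arrangements allow no p under 0.0417, gave p = 0.0833 for each gene.

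Comparing se-1 p35S::MIR156 with ago1-27 sets the MIR156 transgene in a line with impaired SE against a line with impaired AGO1. The se-1 allele, the transgene and the ago1-27 allele all differ here, so their parts cannot be told apart. This was the 1 of 6 pairwise comparisons in which either gene passed the test. Both genes were higher in se-1 p35S::MIR156. For SNZ the log2 change was 1.91 (SE 0.381, 95% interval 1.1 to 2.72, limma adjusted p = 0.00606). Because both ago1-27 arrays were within background, the SNZ signal with the transgene is set against the background there. Its geometric mean was 2.28 times that of the highest bacterial signals of the ago1-27 arrays. This ratio of means leaves out the spread and is no firm lower limit on the fold. On single arrays, the lower SNZ signal with the transgene was 59.0 and the higher ago1-27 background was 34.1. For SMZ the log2 change was 0.84 (SE 0.242, 95% interval 0.33 to 1.35, adjusted p = 0.0490), with means of 72.0 and 33.3. In this comparison 6.93% of all 15922 probe sets tested were called at an adjusted p under 0.05, 3.96% as higher in se-1 p35S::MIR156, and 50.5% had arrays that did not overlap.

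The SNZ call rested on arrays of these 2 genotypes and the SMZ call stood at the threshold. SNZ passed the filter on dim probe sets only through the se-1 p35S::MIR156 arrays: without them its mean of 4.98 on the log2 scale would lie under the limit of 5.15. With no filter the call remained (adjusted p = 0.0369). It ended without ago1-27 replicate 2 (adjusted p = 0.0539), without se-1 p35S::MIR156 replicate 1 (0.0703) and without its replicate 2 (0.0576). Over all alternatives the adjusted p ran from 0.00184 to 0.0703 and the log2 change from 0.87 to 3.79, the highest with pseudocount 1. For SMZ the call ended without each of the 8 arrays in turn (adjusted p between 0.0581 and 0.252), and also with pseudocount 1 (0.0566), with no filter (0.110), with only these 2 genotypes in the fit (0.0740) and with the replicate block (0.0607). The log2 change of SMZ stayed between 0.48 and 1.1.

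**Figure D2:**
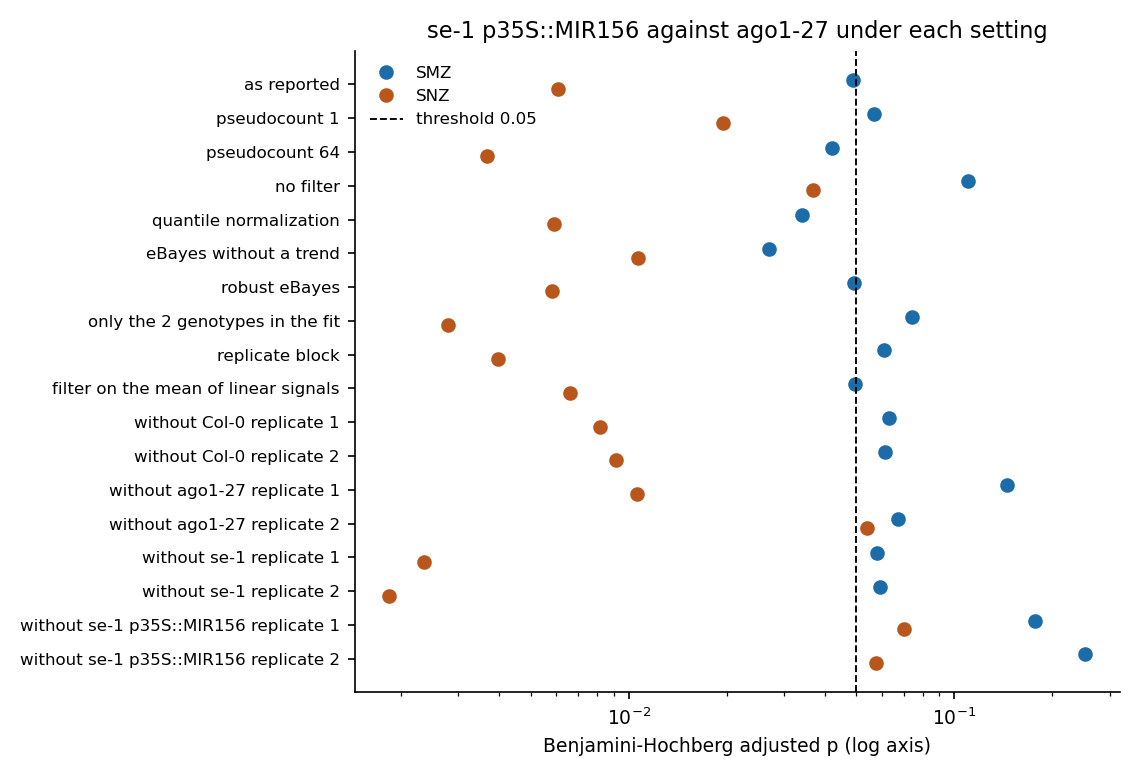
Benjamini-Hochberg adjusted p (horizontal log axis) of SMZ and SNZ for se-1 p35S::MIR156 against ago1-27, as reported and under each alternative setting (vertical axis), with the 0.05 threshold dashed. SMZ moves between 0.0269 and 0.252 and SNZ between 0.00184 and 0.0703.

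Other measures moved with this comparison. PYK10, a beta-glucosidase gene abundant in roots, had signals of 1941 ± 560 with the transgene, 1663 ± 20.8 in Col-0, 786 ± 208 for se-1 and 167 ± 61.8 for ago1-27 (SD, n = 2), and differed between the first and the last by 3.43 on the log2 scale (adjusted p = 6.41e-07). It is 1 of 2 root genes, of 5 listed, with a probe set, and their summed signal was 1546 to 2338 with the transgene, 1650 to 1682 in Col-0, 642 to 943 for se-1 and 128 to 214 for ago1-27. The other, EXP7 of root hairs, was within background on all 8 arrays, so the sum is in effect PYK10 and no second root measure. The summed leaf signal was highest in ago1-27, at 8156 to 10150, against 6567 to 7764 in se-1 p35S::MIR156, and 0 of its 3 genes were called by limma in this comparison, with 1 at an unadjusted p under 0.05. The actin control signal at the 3' end over that at the 5' end, a measure of RNA quality, was 4.83 and 4.40 in ago1-27, compared with 3.26 and 3.48 in the transgenic line. A different pair of actin control probe sets gave ratios that overlapped, 30.3 and 17.4 in ago1-27 and 25.4 and 20.8 in the transgenic line. The highest bacterial signal differed too, at 22.0 and 34.1 in ago1-27 and 14.2 and 18.3 in the transgenic line. It was exceeded by 69.3% and 65.1% of probe sets in ago1-27 and by 74.2% and 71.2% in the transgenic line. By geometric mean it ran over the 4 genotypes in the reverse order of the SNZ means. The part of these measures in the SMZ and SNZ values was not tested.

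Setting the transgenic line beside se-1 asks about the MIR156 transgene where SE is impaired. The level of miR156 itself was not measured. SNZ had means of 62.3 and 15.6 and a log2 change of 1.41 (95% interval 0.60 to 2.22), with arrays that did not overlap, but did not pass over all probe sets (unadjusted p = 0.00209, limma adjusted p = 0.206). SMZ had means of 72.0 and 52.2 and a log2 change of 0.37 (-0.15 to 0.88, adjusted p = 0.702). Here 0.358% of probe sets were called and 41.7% had arrays that did not overlap. The SNZ value leaned on the uneven se-1 pair: it was 0.86 without se-1 replicate 2 and 1.96 without replicate 1. PYK10 was also higher with the transgene here, with a log2 change of 1.28 and an adjusted p of 0.0356. That call ended with no filter (0.235), without either Col-0 array (0.0777 and 0.0769), without se-1 replicate 1 (0.225) and without either transgenic array (0.378 and 0.0867), among other settings, and the part of PYK10 was not tested.

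Against Col-0, se-1 p35S::MIR156 had higher values for both genes, by 0.66 for SMZ (0.15 to 1.18, adjusted p = 0.341) and 0.61 for SNZ (-0.20 to 1.42, adjusted p = 0.704) on the log2 scale, and 0.842% of probe sets were called. Neither gene passed, although the arrays of the genotypes did not overlap for either. This was so for 41.1% of all probe sets tested. The SNZ value was 0.27 without Col-0 replicate 1 and 0.95 without Col-0 replicate 2.

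The comparisons of each mutant with Col-0 ask how these miR172 targets behave when microRNA processing or action is impaired. In ago1-27, SNZ had a log2 change of -1.30 (-2.11 to -0.49, unadjusted p = 0.00380, adjusted p = 0.119). The geometric mean of SNZ in Col-0 was 1.27 times that of the highest bacterial signals of the ago1-27 arrays. This is no firm bound on a fold, since Col-0 replicate 1 lay below the highest bacterial signal of ago1-27 replicate 2. SNZ was not called in this comparison. SMZ had a log2 change of -0.18 there (-0.69 to 0.34, adjusted p = 0.826), and 1.66% of probe sets were called, with 40.8% without overlap. In se-1 the values were -0.80 for SNZ (-1.61 to 0.01, adjusted p = 0.426) and 0.30 for SMZ (-0.22 to 0.81, adjusted p = 0.702), with 1.09% of probe sets called and 42.9% without overlap. The SNZ value in se-1 was -0.25 without se-1 replicate 2, the array within background, and -1.35 without replicate 1. The root gene PYK10 moved in these comparisons too, with log2 changes of -3.24 in ago1-27 (adjusted p = 3.96e-06) and -1.09 in se-1 (adjusted p = 0.0455), and its part was not tested. The se-1 call ended, among other settings, with no filter (0.187), without either Col-0 array (0.296 and 0.201) and without se-1 replicate 1 (0.271). Between se-1 and ago1-27, SMZ had a log2 change of 0.47 (-0.04 to 0.99, adjusted p = 0.368), where 3.37% of probe sets were called and 43.3% had arrays that did not overlap. For SNZ the fitted log2 change there was 0.50 (-0.31 to 1.31, adjusted p = 0.580). It is not read as a fold, since 3 of the 4 arrays were within background.

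**Figure D3:**
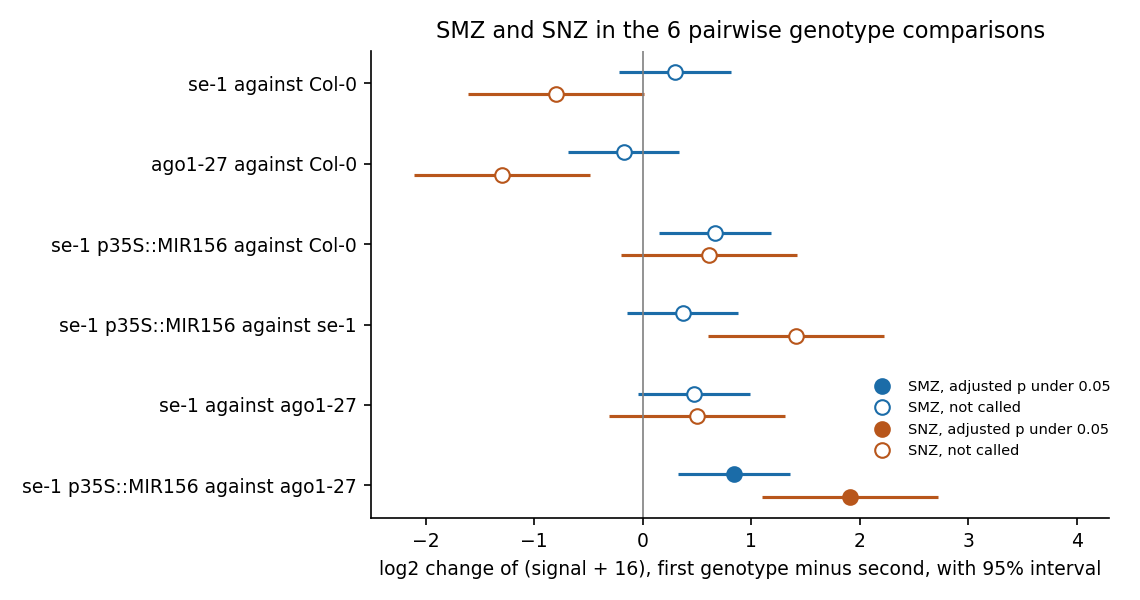
Fitted log2 change of signal + 16 for SMZ and SNZ in each of the 6 pairwise comparisons, first genotype minus second; lines are 95% intervals and filled points have an adjusted p under 0.05. Filled points occur only for se-1 p35S::MIR156 against ago1-27, and in se-1 against Col-0 the values are 0.30 for SMZ and -0.80 for SNZ. With no filter on dim probe sets, the limma adjusted p of the filled points was 0.0369 for SNZ and 0.110 for SMZ.

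Over the 6 comparisons, arrays did not overlap in 5 for SMZ and in 4 for SNZ, against 40.8% to 50.5% of probe sets in each. An unadjusted limma p under 0.05 was reached in 2 for SMZ and 3 for SNZ. Such values were common over all 15922 probe sets tested. In se-1 against Col-0 the SNZ value, at an unadjusted p of 0.0529, ranked only 1980. In se-1 against ago1-27 the SMZ value, at 0.0694, ranked 2998. Counts by unadjusted p, here and for the listed genes, are therefore given as a description. These comparisons share arrays and are not independent of each other.

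Whether the pair differed in how they varied was tested on the log2 difference between them in each array, a test added after the values were seen. That difference, SMZ minus SNZ, was 0.11 ± 0.63 in Col-0, 0.17 ± 0.13 with the transgene, 1.21 ± 0.87 for se-1 and 1.24 ± 0.61 for ago1-27 (SD, n = 2). The means were higher in the microRNA mutants without the transgene, where SNZ was near background. The genotypes were not shown to differ in it (exact permutation test, p = 0.238). Over the 8 arrays the log2 values of the 2 genes had r = 0.53 as a description, and 2130 of the other 15921 probe sets tested were more like SMZ than SNZ was.

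Genotypes were also pooled in pairs, in groupings chosen after the values were seen, so the ranges are given as a description with no test. The 4 arrays with the se-1 allele had SMZ signals of 49.3 to 74.0 and the 4 Col-0 and ago1-27 arrays 28.8 to 43.8. They did not overlap, as was so for 8.41% of probe sets tested. SNZ overlapped in that grouping. With Col-0 and se-1 p35S::MIR156 set against se-1 and ago1-27, SNZ ran from 24.6 to 65.7 and from 0.963 to 27.1, an overlap of 1 array on each side.

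Genes that act with or after the AP2-family repressors were covered thinly. Of 12 floral promoters 5 had a listed probe set and 3 were tested. AGL42, a MADS-box gene related to SOC1 that promotes flowering, had signals of 63.7 ± 5.0 in Col-0, 136 ± 2.79 for se-1, 31.9 ± 5.98 with the transgene and 138 ± 49.5 for ago1-27 (SD, n = 2). It was lowest in the genotype where SMZ and SNZ were highest. That genotype is also the one with the MIR156 transgene, and a link of AGL42 to SMZ, SNZ or miR156 was not tested. AGL42 was called in 2 comparisons. It was lower in se-1 p35S::MIR156 than in ago1-27, with a log2 change of -1.65 (adjusted p = 0.000572), and than in se-1, with -1.68 (adjusted p = 0.00430), a call that ended with no filter (0.0899) and without se-1 p35S::MIR156 replicate 2 (0.0974).

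The other tested promoters, named after their values were seen, did not pass in any comparison by limma, although both had an unadjusted p under 0.05 in se-1 p35S::MIR156 against ago1-27, in opposite directions. FD, the bZIP partner of FT at the apex, had signals of 46.3 ± 3.05 in Col-0, 73.4 ± 6.0 for se-1, 28.1 ± 0.436 with the transgene and 53.6 ± 8.10 for ago1-27 (SD, n = 2), with log2 changes of -1.02 from se-1 (adjusted p = 0.105) and -0.65 from ago1-27 (adjusted p = 0.117) to the transgenic line. It shared with AGL42 its lowest value in se-1 p35S::MIR156, with no overlap with the other genotypes, a pattern not counted over all probe sets. AGL24, a MADS-box promoter of flowering, went the other way: its signals were 297 ± 72.4 in Col-0, 235 ± 60.2 for se-1, 265 ± 1.41 with the transgene and 186 ± 19.5 for ago1-27 (SD, n = 2), and the transgenic line had log2 changes of 0.48 from ago1-27 (adjusted p = 0.207) and 0.18 from se-1 (adjusted p = 0.858). The 3 promoters thus did not share a direction.

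**Figure D4:**
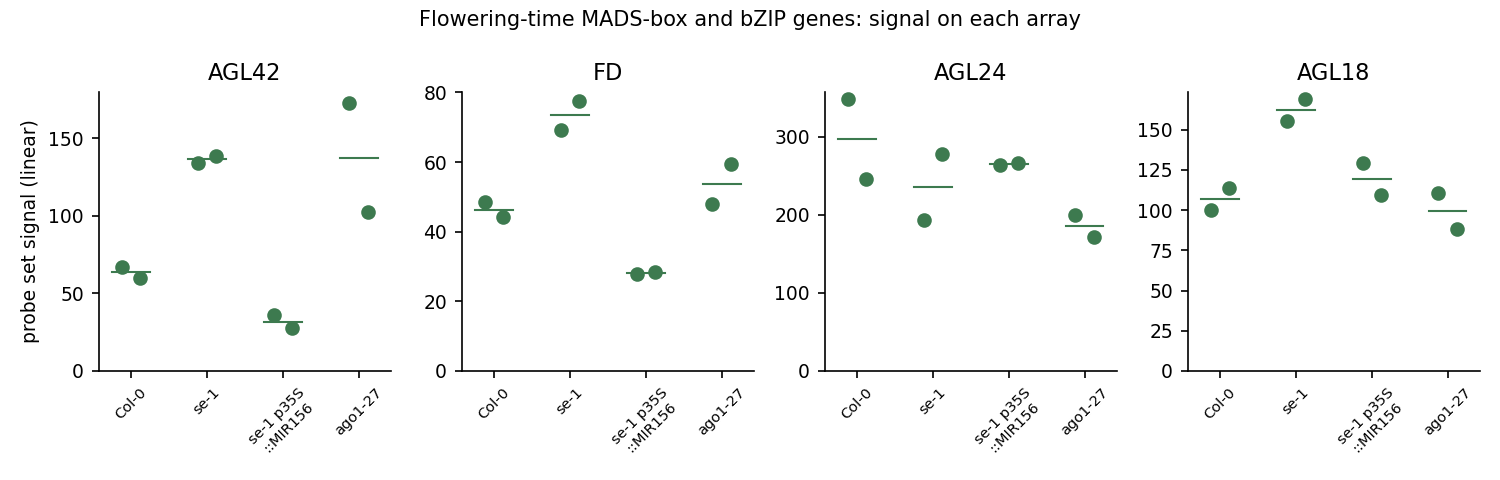
Signal of AGL42, FD, AGL24 and AGL18 on each of the 8 arrays, by genotype (points; lines are means of 2 arrays; each panel has its own linear axis from 0). AGL42 and FD have their lowest means, 31.9 and 28.1, in se-1 p35S::MIR156, while AGL18 has its highest mean, 162, in se-1.

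Among 12 other floral repressors 1 was tested, AGL18, a MADS-box repressor, with signals of 107 ± 9.51 in Col-0, 162 ± 9.91 for se-1, 119 ± 14 with the transgene and 99.4 ± 16 for ago1-27 (SD, n = 2). It was highest in se-1 rather than in the transgenic line, and it was not called in any comparison (limma adjusted p between 0.107 and 0.922), with an unadjusted p under 0.05 in se-1 against Col-0 and against ago1-27. Of 7 photoperiod genes GI and CDF5 were tested and neither was called by limma, with at most 1 at an unadjusted p under 0.05 in a comparison. Of 11 AP2-domain genes without a miR172 site, AIL1 and BBM had a listed probe set and were within background on all 8 arrays. Of 10 microRNA machinery genes 3 were tested, and 0 were called by limma in any of the 6 comparisons, with 1 at an unadjusted p under 0.05 in se-1 p35S::MIR156 against se-1 and 0 in the others. SE itself gave 117 ± 0.0955 for se-1, 132 ± 4.56 in Col-0, 146 ± 22.0 with the transgene and 155 ± 20.1 for ago1-27 (SD, n = 2). Whether its probe set lies in the altered part of the gene is not given in the sources used here.

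By the correlation of log2 values over the 8 arrays, given as a description, the 5 genes most like SMZ among probe sets listed with 1 gene were AT5G12050 (r = 0.97), AT2G45180 (0.96), AT1G26450 (0.96), AT2G34930 (0.96) and the zinc-finger gene IDD16 (0.95). IDD16 ran from 30.5 ± 9.76 in ago1-27 through 41.9 ± 3.63 in Col-0 and 59.2 ± 6.86 in se-1 to 68.3 ± 6.63 in se-1 p35S::MIR156 (SD, n = 2), the order of SMZ. AT2G45180, which was brighter, went from 966 ± 180 through 1026 ± 16.4 and 1425 ± 252 to 2039 ± 282 (SD, n = 2). The 5 most like SNZ, by the same rule, were AT5G62150 (0.98), AT5G40830 (0.98), AT4G33640 (0.97), AT3G05270 (0.97) and ACS (0.97), which encodes an acetyl-CoA synthetase. AT5G62150 had 54.8 ± 8.64 for ago1-27, 73.2 ± 19.7 for se-1, 87.7 ± 9.67 in Col-0 and 123 ± 14.4 with the transgene (SD, n = 2), the order of SNZ. No gene was on both lists. With 4 genotypes of 2 arrays, such values carry no test. The genes were picked for likeness on these same arrays, so a shared order of genotypes largely follows from the choice. Of all 15921 other probe sets tested, including those without a listed gene, the named genes ranked 3 to 9 in likeness to SMZ and 2 to 7 in likeness to SNZ.

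None of the neighbouring genes tested, which were added after the data were seen, was called in se-1 p35S::MIR156 against ago1-27. In the reference annotation SMZ and SNZ lie on different chromosomes, and of the 3 annotated genes on each side of each, 3 around SMZ and 2 around SNZ had a tested probe set. In se-1 p35S::MIR156 against ago1-27, those around SMZ, AT3G54970, AT3G54980 and AT3G55005, had log2 changes of -0.48, -0.31 and -0.31 (adjusted p between 0.184 and 0.411). Those around SNZ, AT2G39230 and AT2G39260, had 0.41 and -0.0023 (adjusted p = 0.333 and 0.997).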

How the data were processed

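The file deposited by the authors holds 1 linear signal (intensity) per probe set and array. The authors scaled each array, so that the 2% trimmed mean of all 22810 probe sets was 200.02 on each; the submitters' processing notes name GCOS, and the signal algorithm is not given in the sources used here. Groups came from the genotype labels. Without the 64 control probe sets, signals were put on the scale of log2(signal + 16), and the dimmest 30% by mean log2 of all arrays were dropped. This kept 15922 of 22746 probe sets, to which limma 3.58.1 in R 4.3.3 fitted the 4 genotype means (lmFit, eBayes with a trend, 4 residual and 11.27 prior degrees of freedom). Tests were two-sided and adjusted by Benjamini-Hochberg within each comparison, and an adjusted p under 0.05 is called. Exact permutation tests used single genes, since 2 arrays against 2 cannot give p under 0.333. The procedure was tested on simulated data with independent noise and planted changes. That setting has no background floor and no effects shared by an array, so it says nothing on signals near background. The number of arrays limits the precision.

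The platform annotation lists 14016 probe sets, 13513 with 1 gene and 503 with several, and names were updated through the TAIR10.1 gene table. A signal up to the highest of 27 bacterial control signals of its array is within background. By rule, the genes named are SMZ and SNZ, up to 4 called members of each list, and the 5 genes most like each by Pearson's r. Uncalled list members and neighbouring genes were named after their values were seen. The members, lists and tests were chosen with earlier results of these data known. Alternatives were pseudocounts 1 and 64, no filter, the lowest 50% left out, quantile normalization, eBayes without a trend or robust, only the genotypes compared, the replicate block and each array left out. A filter on linear means was added after the data were seen. Sequences were not used here.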

Additional observations from a re-analysis of the deposited data

How the results depend on the processing

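Of 204 alternative values of SMZ and SNZ over the 6 pairwise comparisons, 188 kept direction and side of the threshold, 15 lost a call, all in se-1 p35S::MIR156 against ago1-27, and 1 changed sign. Most of the 204 belong to comparisons with no call, where keeping the side means staying uncalled. In se-1 p35S::MIR156 against ago1-27 the call was kept in 5 of 17 alternatives for SMZ and in 14 of 17 for SNZ. SMZ there was 1.1 on the log2 scale with pseudocount 1 and 0.84 with no filter, with only the 2 genotypes in the fit and with the replicate block, each without a call, and 0.71 to 0.97 when 1 array was left out. SNZ was 1.61 to 2.21 when 1 array was left out. For se-1 against ago1-27, which was not called, SNZ was -0.049 without se-1 replicate 1 and ran up to 1.05 when another array was left out. Most arrays of these genotypes were within background for SNZ, so these values are not read as folds. With the replicate block, the permutation p of SMZ was 0.0833, where no p under 0.0417 is possible; that of SNZ was 0.0833 too. Leaving out the lowest 50% of probe sets removed both genes and gave no value.

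The labels give no link between arrays of the same number. Replicate differences correlated between -0.206 and 0.112 over the genotype pairs, although the highest bacterial signal was higher on replicate 2 in all 4 genotypes, and the replicate block changed no other call of SMZ or SNZ. The count of called probe sets ran from 32 to 210 (173 as reported) for se-1 against Col-0, from 81 to 337 (265) for ago1-27 against Col-0, from 14 to 280 (134) for se-1 p35S::MIR156 against Col-0, from 10 to 76 (57) against se-1, and from 422 to 1120 (1103) against ago1-27. It ran from 249 to 549 (537) for se-1 against ago1-27. The dim signal of SNZ in ago1-27 limits its fold against se-1 p35S::MIR156 to a ratio of means over background. It leaves no firm bound against Col-0.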
